A study of Mus musculus with 11 samples.

Results

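The wells described here are the 103 in which 6 genes of pachytene spermatocytes, among them Aym1 and Slc47a2, were together at their highest. They were chosen by a score, the mean over 4930525D18Rik, Aym1, Slc47a2, Fam181a, Lrrc71 and Mroh4 of the natural logarithm of 1 plus the UMIs per 10000 (a UMI, or unique molecular identifier, is a short random tag that marks an original RNA molecule). Wells with at least 10000 UMIs were kept, 861 of 1920, and the top 12% of these by score within each mouse were taken. This gave 42 of 349 kept wells in mouse 1, 19 of 158 in mouse 2 and 42 of 354 in mouse 3, which left 758 other kept wells. As the score was made from the UMI counts of the same wells, every comparison of gene counts below is a description without a test.

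The study profiled single cells of the adult testis from 3 untreated mice that carry a Dazl-GFP reporter, in which green fluorescent protein follows Dazl, a gene of germ cells. Live reporter-positive cells were sorted 1 to a well and their polyadenylated RNA was counted from the 3′ end by SORT-Seq. Mouse 1 was prepared with CEL-Seq1 chemistry in 8 libraries of 96 wells, and mice 2 and 3 with CEL-Seq2 in plates of 384 wells, 1 for mouse 2 and 2 for mouse 3. Mouse and chemistry therefore cannot be told apart. Index sorting, which stores each cell's fluorescence, was used except for one plate of mouse 3, where cells were taken by gate. There was no treated group. The replicate is the mouse (n = 3), and comparisons are between wells of the same mouse.

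Pachytene is the long stage of the first meiotic prophase at which homologous chromosomes are fully paired along the synaptonemal complex and recombination is completed. In male germ cells the X and Y, which pair over a short region only, are enclosed in the XY body and transcriptionally silenced, while many autosomal genes needed later by sperm are switched on. Transcription in pachytene spermatocytes depends on the factor MYBL1 among others, and the piRNA pathway, which protects the germline from transposons, is highly active there.

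The 6 genes lie on 6 autosomes. Per RefSeq (GRCm38.p6), 4930525D18Rik is a long noncoding RNA at chr9:114341111-114364627. Aym1, at chr5:113357294-113357821, encodes a small nuclear protein named for activating meiotic promoters in yeast. Slc47a2, at chr11:61301627-61342860, encodes a transporter that exports organic cations. Fam181a lies at chr12:103310966-103317067, Lrrc71, a leucine-rich repeat gene, at chr3:87736923-87748623, and Mroh4, a gene of the maestro heat-like repeat family, at chr15:74606026-74636804.

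Because the 6 genes were high in the same wells, the 250 bases before the start of each were examined. The RefSeq table held 5 of the 6 genes. For 4 of those 5, the start position was matched to a GENCODE transcript of the gene. A match does not show that a transcript begins at exactly that base. Fam181a is among the 4 and is not printed below. Its window, chr12:103314709-103314958 (plus), lies inside the gene span given above, not before it. Both strands were searched for the letters CAACNG (core of the MYB motif), GTTGCC (part of the RFX motif), TGACGTCA (cyclic AMP response element), CACGTG (E-box) and TATAAA (a box of core promoters). The promoters below are shown 5′ to 3′ on the strand of the gene, since 3 of them hold a match, in capitals, and that of Aym1 holds none. 4930525D18Rik is at chr9:114364628-114364877 (minus strand), Aym1 at chr5:113357044-113357293 (plus), Slc47a2 at chr11:61342861-61343110 (minus) and Lrrc71 at chr3:87748624-87748873 (minus), in GRCm38.p6.
4930525D18Rik: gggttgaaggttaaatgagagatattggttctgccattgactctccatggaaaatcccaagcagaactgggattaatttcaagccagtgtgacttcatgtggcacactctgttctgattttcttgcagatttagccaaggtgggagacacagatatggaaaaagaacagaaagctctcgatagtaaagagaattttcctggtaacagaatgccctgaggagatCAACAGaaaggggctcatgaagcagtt
Aym1: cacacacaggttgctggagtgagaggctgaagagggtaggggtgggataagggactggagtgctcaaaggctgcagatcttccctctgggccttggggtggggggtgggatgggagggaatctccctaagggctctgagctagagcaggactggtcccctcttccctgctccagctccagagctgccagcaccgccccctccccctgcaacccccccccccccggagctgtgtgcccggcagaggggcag
Slc47a2: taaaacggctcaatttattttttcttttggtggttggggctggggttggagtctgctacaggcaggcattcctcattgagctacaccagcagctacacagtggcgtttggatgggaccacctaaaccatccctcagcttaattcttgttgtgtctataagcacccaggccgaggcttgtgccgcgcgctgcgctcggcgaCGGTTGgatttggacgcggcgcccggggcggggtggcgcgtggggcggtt
Lrrc71: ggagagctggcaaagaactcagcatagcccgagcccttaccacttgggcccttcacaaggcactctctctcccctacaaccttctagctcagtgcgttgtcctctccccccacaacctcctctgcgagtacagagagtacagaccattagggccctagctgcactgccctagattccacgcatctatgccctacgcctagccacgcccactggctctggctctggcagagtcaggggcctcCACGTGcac
CAACNG was found in 2 of the 5 promoters, 4930525D18Rik at 27 to 22 bases before the start and Slc47a2 at 50 to 45 bases before it, on the opposite strand in the latter. Over all 32851 promoters of the table, 29.3% held it in a window of the same length. The E-box of Lrrc71, at 9 to 4 bases before the start, was the only other match, and 6.02% of all promoters held one. None of the 5 held GTTGCC (10.4% of all promoters), TGACGTCA (1.55%) or TATAAA (12.4%). Among the 17 genes described below as higher in the chosen wells, 12 had a promoter in the table, of which 7 held CAACNG and 2 an E-box. A gene was counted if any of its promoters held the match, whereas the shares above are of single promoters. A match is a run of letters and shows no binding.

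All 6 genes had a UMI in 102 of the 103 chosen wells, and 5 of the 6 in the remaining well. In the other kept wells, 195 of 758 had a UMI of all 6 and 119 of none. The median score was 1.34, 1.55 and 1.57 in the chosen wells of mice 1, 2 and 3, against 0.151, 0.151 and 0.286 in the others. The scores of the other wells fell into a low band, with 498 wells under 0.5, and a high band, with 182 wells at 1 or more. Between the bands lay 78 wells. Within mice 1, 2 and 3 the chosen wells are thus the upper 42 of 108, 19 of 53 and 42 of 124 wells scoring 1 or more, with no gap at the cut.

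At the cut, the lowest chosen and highest other well scored 1.2830 and 1.2828 in mouse 1, 1.475 and 1.471 in mouse 2, and 1.494 and 1.493 in mouse 3. Within 0.1 above the lowest chosen score lay 32, 13 and 30 chosen wells of mice 1, 2 and 3, and within 0.1 below it 35, 10 and 39 other wells. As the choice took the same share of kept wells within each mouse, only the plates of mouse 3 could be compared. The share was 12.7% (28 of 220, exact Clopper-Pearson 95% interval 8.63 to 17.9) on the gate-sorted plate of mouse 3 and 10.4% (14 of 134, 5.83 to 16.9) on its index-sorted plate. Intervals cover counting error only and treat wells as independent draws, which a choice by rank within the mouse does not give.

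**Figure D1:**
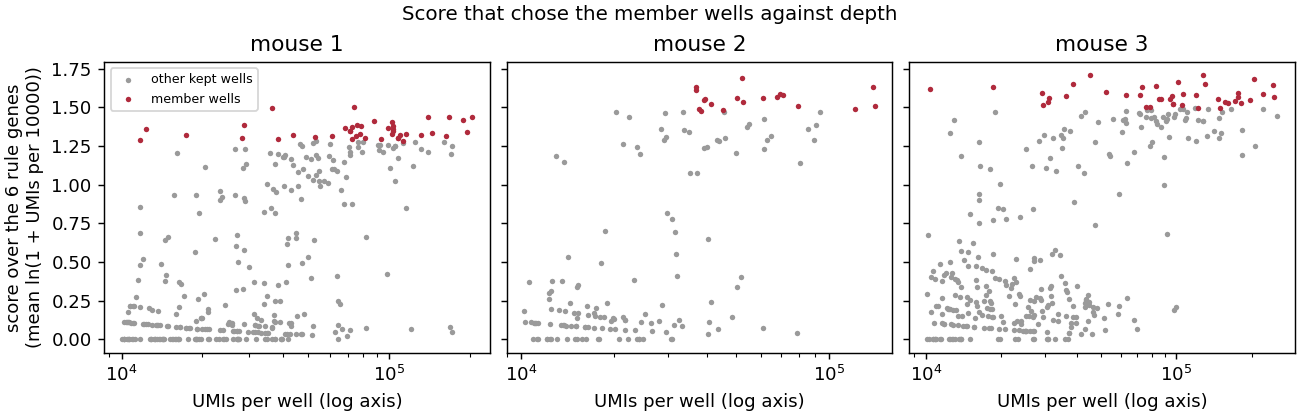
Score over the 6 genes (vertical axis, mean of ln(1 + UMIs per 10000)) against UMIs per well (horizontal log axis) for all 861 kept wells, 1 panel per mouse, chosen wells in red and the others in grey. The chosen wells are the top of a dense band of wells with scores of 1 or more, above a second band with scores under 0.5.

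The chosen wells were deeper than the others. Their median was 84789, 52113 and 97166 UMIs in mice 1, 2 and 3 (lowest 11709, 36878 and 10373), and that of the other kept wells 29096, 20712 and 26198. UMIs were therefore summed over wells and compared per 1000000 (CPM). 4930525D18Rik stood at 520, 465 and 543 CPM in the chosen wells of mice 1, 2 and 3 and at 183, 148 and 250 in the others. For Aym1 these levels were 254, 242 and 132 against 95.6, 70.8 and 39.3, the lowest in both classes being mouse 3. For Slc47a2 they were 217, 302 and 373 against 84.0, 114 and 156, the lowest being mouse 1.

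Fam181a stood far lower in mouse 1 than in the other mice in both classes, at 92.5, 315 and 342 CPM in the chosen wells and 30.5, 108 and 162 in the others. Lrrc71 was at 275, 334 and 311 against 104, 89.8 and 154. Mroh4, the most abundant of the 6, was at 659, 809 and 999 against 328, 358 and 551. Within every mouse the chosen wells were above the others for all 6 genes, as the choice requires. The log2 ratio (with 1 CPM added to both sides) was smallest for Mroh4, 1.01 ± 0.16 (SD, n = 3 mice), and largest for Aym1, 1.63 ± 0.20.

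The share of wells with a UMI of a gene was compared after each well was thinned to 10000 UMIs, which all 861 wells have. Thinned shares for the 6 genes ranged from 64.3% to 100% in the chosen wells of the 3 mice and from 13.4% to 59.3% in the others. In the 103 wells highest for markers of undifferentiated spermatogonia, the stem and progenitor cells, they ranged from 0% to 31.6%. Before thinning the ranges were 97.6% to 100%, 30.3% to 75.6% and 0% to 64.3%. The spermatogonia set had a median of 28488 UMIs per well. The smallest thinned share in the chosen wells was that of Fam181a in mouse 1.

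Among the 6, Aym1 had most weight in deciding which wells were chosen. With the score made from the other 5 genes, 81 of the 103 wells were chosen again when Aym1 was left out and 94 when Mroh4 was left out. Leaving out 4930525D18Rik, Slc47a2, Fam181a or Lrrc71 gave 90, 89, 92 and 88.

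Of 8 pachytene markers, 6 had a ratio above 1 in 3 of 3 mice, as did 29.7% of all 12310 genes compared, and none passed 2-fold in every mouse, with a median log2 ratio of 0.59 over the 8. Piwil1, a piRNA-binding protein, was at 1507, 3031 and 2910 CPM in the chosen wells of mice 1, 2 and 3, against 893, 1344 and 1544 in the others. Hist1h1t, the testis histone H1, and Pgk2, the testis phosphoglycerate kinase, were not higher, with mean log2 ratios of -0.08 and -0.09 at levels of 3.05 and 22.4 CPM.

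Markers of earlier stages were mostly lower. Over all genes compared, 19.3% were at least 2-fold lower in every mouse. Among markers of undifferentiated spermatogonia 7 of 8 measured passed 2-fold lower in every mouse, as did 6 of 8 of differentiating spermatogonia and 7 of 8 of leptotene and zygotene, the stages just before pachytene. Kit, a receptor of differentiating spermatogonia, was at 4.14 CPM on average against 89.5. Stra8, which drives meiotic entry, was at 8.38 against 157. Dmrtb1 was not lower, at 181 against 176. The last 8 include Spo11, the enzyme of meiotic double-strand breaks, which was higher instead (170 against 103).

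Markers of somatic testis cells were low in both classes. The 8 Sertoli markers summed to 5.47, 12.3 and 3.50 CPM in the chosen wells of mice 1, 2 and 3, against 27.7, 42.0 and 66.0 in the others, with 3 of the 8 at 0. The 7 Leydig markers summed to 13.3, 8.19 and 8.31, against 8.83, 6.08 and 8.02, with 3 at 0. Markers of round spermatids summed to 207, 183 and 179 CPM in the chosen wells, against 135, 151 and 131 in the others, most of it from Lrrc34 (179 ± 18 against 116 ± 5). Markers of elongating spermatids summed to 37.0, 51.6 and 26.5, against 50.2, 387 and 150. Doublets were not removed, as a single cell was sorted to each well.

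Spike-in, mitochondrial and reporter rows took no part in the choice. The endogenous UMIs they are set against did, as the minimum of 10000 and as the divisor of the score. The spike-in ratio, the mitochondrial share and the eGFP level are therefore given without a test. The chosen wells had more endogenous RNA per spike-in molecule (ERCC, a fixed amount added to each well). The ratio was 402, 145 and 128 UMIs per ERCC UMI in the chosen wells of mice 1, 2 and 3, and 177, 54.7 and 46.0 in the others. The mean log2 ratio was 1.36 ± 0.15 (SD, n = 3), in the same direction in 3 of 3 mice.

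The mitochondrial share was lower in the chosen wells in every mouse, at 2.56%, 7.58% and 6.90% of UMIs in mice 1, 2 and 3, against 4.53%, 10.5% and 9.75%. The difference was -2.57 ± 0.52 percentage points (SD, n = 3). Against only the other wells with few X UMIs it was -1.31. With 3 mice, 0.25 is the smallest p that an exact permutation of the labels within mice can give, so the design cannot reach 0.05 in any case. The eGFP transcript of the reporter was close to undetected: the chosen wells of each mouse together held 2 of its UMIs, and the others 17, 12 and 16. This was 0.793 ± 0.585 CPM in the chosen wells and 1.74 ± 0.84 in the others (difference -0.95 ± 0.26).

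Transcripts of the sex chromosomes were scarce in the chosen wells. X UMIs per 100 autosomal UMIs were 0.349, 0.125 and 0.0900 in mice 1, 2 and 3, against 1.28, 1.28 and 1.01 in the other kept wells. Every chosen well was under 1, with well medians of 0.349, 0.130 and 0.0874 and a highest well of 0.668, 0.231 and 0.193. The share in mouse 1 was above that in the other mice, and its lowest well, at 0.138, was above the median wells of mice 2 and 3.
Y UMIs per 100 autosomal were 0.00499, 0.00476 and 0.00427, against 0.0972, 0.0608 and 0.0491. The mean log2 ratio of the classes was -2.91 ± 0.90 for the X and -3.83 ± 0.40 for the Y (SD, n = 3).
A low X share was not limited to the chosen wells: 141 of 307, 56 of 139 and 113 of 312 other wells of mice 1, 2 and 3 were also under 1.

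**Figure D2:**
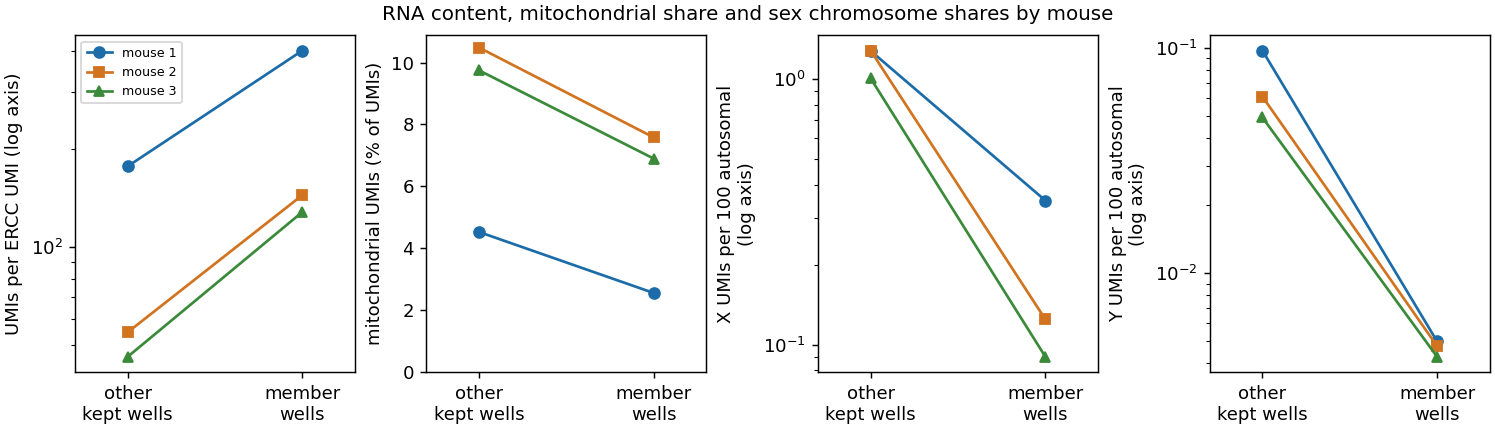
From left to right, UMIs per ERCC UMI (log axis), mitochondrial UMIs as a percentage of UMIs, and X and Y UMIs per 100 autosomal UMIs (log axes), in the other kept wells and the chosen wells, with 1 line per mouse. In all 3 mice RNA content is higher and the mitochondrial, X and Y shares are lower in the chosen wells. Among the chosen wells the X share is highest in mouse 1.

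Against all other kept wells, few genes were higher and many were lower. With the 6 choosing genes left out, 12310 genes had at least 10 UMIs in the kept wells of every mouse. Of these, 17 (0.138%) were at least 2-fold higher in each of the 3 mice and 2371 (19.3%) at least 2-fold lower. The median log2 ratio of all genes tested was -0.21. On the X, 328 of 403 genes (81.4%) passed 2-fold lower and none higher. On the Y all 9 passed lower, and on the autosomes 2034 of 11898 (17.1%). The 17 higher genes were all autosomal. When each well had equal weight in place of each UMI, 825 genes passed higher and 2683 lower, and with every well thinned to 10000 UMIs 588 and 1965. These settings differ from the sums in the weight given to deep wells, and the number of higher genes depends on them. The number of genes tested under them is not given here, so these counts are not shares of the 12310.

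The higher genes were ranked by the lowest of their 3 ratios. Mgll, the lipase that splits monoacylglycerols, was at 481, 557 and 598 CPM in the chosen wells of mice 1, 2 and 3 and 157, 206 and 278 in the others (log2 ratio 1.38 ± 0.26, SD). Abcc12, a transporter of the ATP-binding cassette family, was at 125, 121 and 138 against 45.1, 30.1 and 57.4 (1.56 ± 0.37). The predicted gene 4931408D14Rik was at 366, 296 and 380 against 133, 123 and 180 (1.26 ± 0.19). In all 3 genes the lowest mouse among the chosen wells exceeded the highest among the others, which the ranking favours.

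C230037L18Rik, of low abundance, had a log2 ratio of 1.51 ± 0.30 at 23.5 ± 3.3 CPM. Dnm3, a dynamin that severs membrane vesicles, had 1.32 ± 0.21 at 64.7 ± 16.9. Armc4, needed to dock the outer dynein arms of cilia and flagella, had 1.23 ± 0.17 at 42.5 ± 3.1. The remaining 9 of the 15 by rank were Gm5458, Gm6639, Speer7-ps1, Zfp389, Gm13889, Tmem30c, Ccdc88b, Sel1l2 and Cdkl4, with mean log2 ratios of 1.14 (Gm6639) to 1.36 (Gm13889). Gm5458 was at 110 CPM in the chosen wells of mouse 1 and at 15.6 and 19.2 in mice 2 and 3. Gm5458 and Speer7-ps1 belong to families of near-identical copies, so how reads were divided among copies is uncertain. The other two genes past 2-fold were Mfsd6l and Wnt7a, at 9.75 and 5.15 CPM in the chosen wells, named outside the ranking rule after their values were seen.

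Of the 10 lower genes ranked by the weakest of their 3 ratios, 8 were X-linked. Taf7l, a germ cell subunit of the general transcription factor TFIID, was at 2.34, 4.10 and 8.09 CPM in the chosen wells against 184, 360 and 317 in the others (log2 ratio -5.69 ± 0.52). Hdac6, a deacetylase of tubulin, had -5.11 ± 0.79, and Tex11, a meiotic crossover factor, had -4.76 ± 0.50. Rpl36a, Eif1ax, Lamp2, Huwe1 and Cited1 were also X-linked, with mean log2 ratios from -4.37 (Lamp2) to -4.77 (Rpl36a). The 2 autosomal genes were Dmrt1, a transcription factor of spermatogonia, at 5.87 ± 3.58 against 209 ± 64 CPM, and Prrc2b, at 2.59 ± 1.53 against 83.3 ± 17.8.

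**Figure D3:**
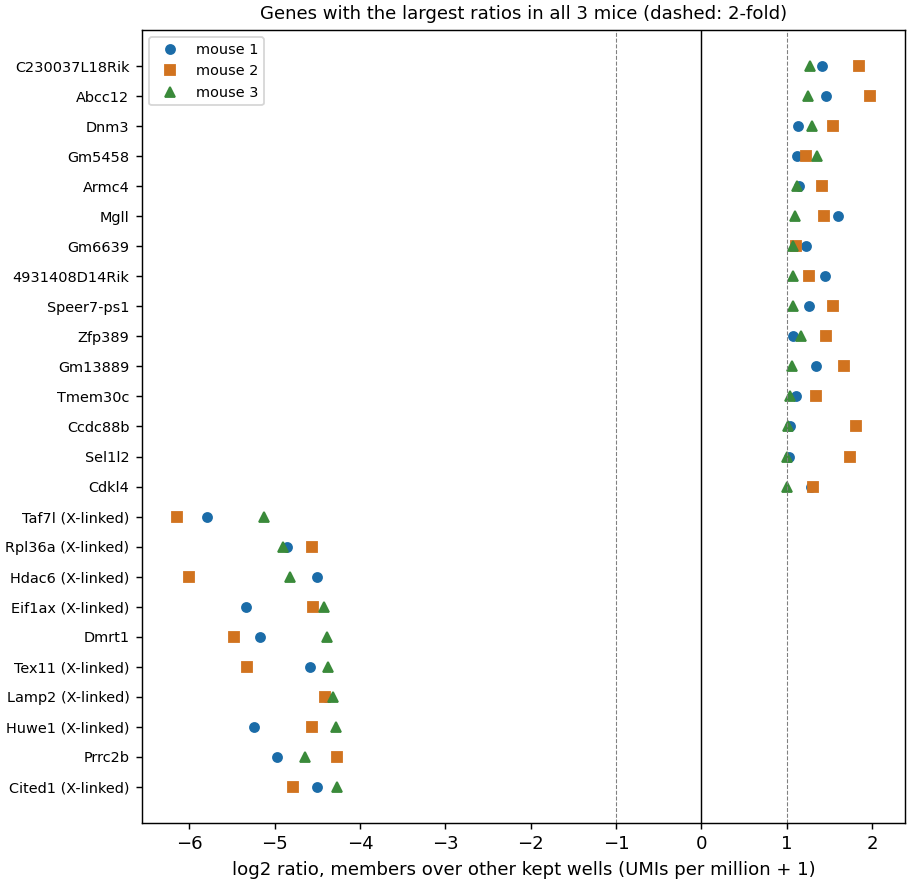
Log2 ratio of CPM (with 1 added) between the chosen and the other kept wells (horizontal axis) for the 15 genes ranked highest and the 10 ranked lowest, with 1 marker per mouse and dashed lines at 2-fold. The higher genes lie between about 1 and 2 and none is X-linked, whereas the lower genes lie below -4 and 8 of 10 are X-linked.

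The other kept wells include all stages from spermatogonia on, so a second comparison, added after the data were seen, took only the 310 other wells with an X share under 1. These had a median of 41464 UMIs. Of 9954 genes with enough UMIs, none (0%) was 2-fold higher in the chosen wells in every mouse and 49 (0.492%) were 2-fold lower, 7 of them X-linked. The number of X-linked genes among the 9954 is not given here, so whether 7 of 49 is many cannot be said. The 15 genes ranked highest above were still above 0 in 3 of 3 mice, with mean log2 ratios of 0.44 to 0.86. They had been ranked against a set that holds these 310 wells, so this is a description. The log2 ratio of the 6 choosing genes was 0.30 for Mroh4 to 0.90 for Aym1, where the choice fixes the direction.

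The lower genes of that comparison included strand exchange factors of meiotic recombination. Dmc1, the meiosis-specific recombinase, was at 2.60, 8.19 and 6.12 CPM in the chosen wells of mice 1, 2 and 3 and at 56.0, 46.5 and 27.8 in the low-X others. Mnd1, a DMC1 partner, was at 10.1 ± 2.0 against 48.8 ± 26.7. Meiob, which binds single-stranded DNA, was at 41.1 ± 15.9 against 132 ± 44. These 3 are among the 4 of 14 strand exchange genes past 2-fold lower. Gnas, the stimulatory G protein subunit, was at 52.0 ± 4.8 against 263 ± 49. The testis protease Prss50 was at 8.0 ± 7.4 against 50.2 ± 27.5. Gnas, Prss50 and the count were chosen after their values were seen.

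For the neighbouring stages, wells were taken by the same score and share over Gml and Hemt1 (early pachytene set) and over Tcp10a, Tcp10b, Tcp10c and Adam3 (late pachytene set). Each set had 103 wells. The sets are named for the genes that chose them, and the stage of single wells was not tested. The early set shared 1 well with the chosen wells and the late set shared 45, so mid and late pachytene by these genes were not separate groups. Of the 45 shared wells 22, 7 and 16 came from mice 1, 2 and 3. The median UMIs per well were 28867 in the 102 early wells not chosen, 71339.5 in the 58 chosen wells outside the late set, 102854 in the 45 shared wells and 57982 in the 58 late wells not chosen. Marker sums are means of 3 mice. Leptotene and zygotene markers summed to 808 CPM in early wells not chosen and 268 in chosen wells outside the late set. Pachytene markers summed to 4882 and 8357 in these sets, and to 8385 in late wells not chosen. Markers of differentiating spermatogonia summed to 582 in late wells not chosen and 269 in chosen wells outside the late set. Some late wells not chosen scored under 0.5 over the 6 genes.

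Across these sets the 6 genes peaked in the chosen wells, which their choice favours. Aym1 was at 88.0 ± 24.5 CPM in the early set, 206 ± 74 in chosen wells outside the late set, 213 ± 56 in the shared wells and 101 ± 44 in late wells not chosen. In the spermatogonia set it was at 1.49 ± 2.01. Slc47a2 was highest in chosen wells outside the late set, at 84.3 ± 53.9, 316 ± 90, 272 ± 60 and 190 ± 29 over these 4 sets. Fam181a was at 84.8 ± 64.3, 259 ± 148, 237 ± 123 and 152 ± 87. Late wells not chosen lack the highest scores by definition, so lower levels there follow in part from the choice. The difference between chosen wells outside the late set and late wells not chosen was smaller for the remaining genes. 4930525D18Rik was at 448, 457 and 530 in chosen wells outside the late set of mice 1, 2 and 3. In late wells not chosen it was at 444, 365 and 427. Lrrc71 was at 241, 335 and 285 against 275, 233 and 316, so its order differed between mice.

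The genes that chose the neighbour sets had opposite orders across them. Gml, which encodes a surface protein of the LY6 family, was at 796 ± 145 CPM in early wells not chosen, 393 ± 76 in chosen wells outside the late set, 217 ± 21 in the shared wells and 153 ± 60 in the late wells not chosen. Adam3, a sperm surface protein, was at 13.7 ± 5.7, 55.4 ± 24.7, 174 ± 26 and 267 ± 81. Id4, an inhibitor of basic helix-loop-helix factors that chose none of these sets, was at 307 ± 56, 420 ± 35, 309 ± 29 and 249 ± 29. The Tcp10 genes were almost confined to mouse 1: Tcp10a in the late wells not chosen was at 378, 12.1 and 10.6 CPM in mice 1, 2 and 3. Adam3 was there at 231, 210 and 360, so in mice 2 and 3 most UMIs behind the late set were of Adam3. As near-identical paralogs the Tcp10 genes share reads, and how reads were divided is uncertain.

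**Figure D4:**
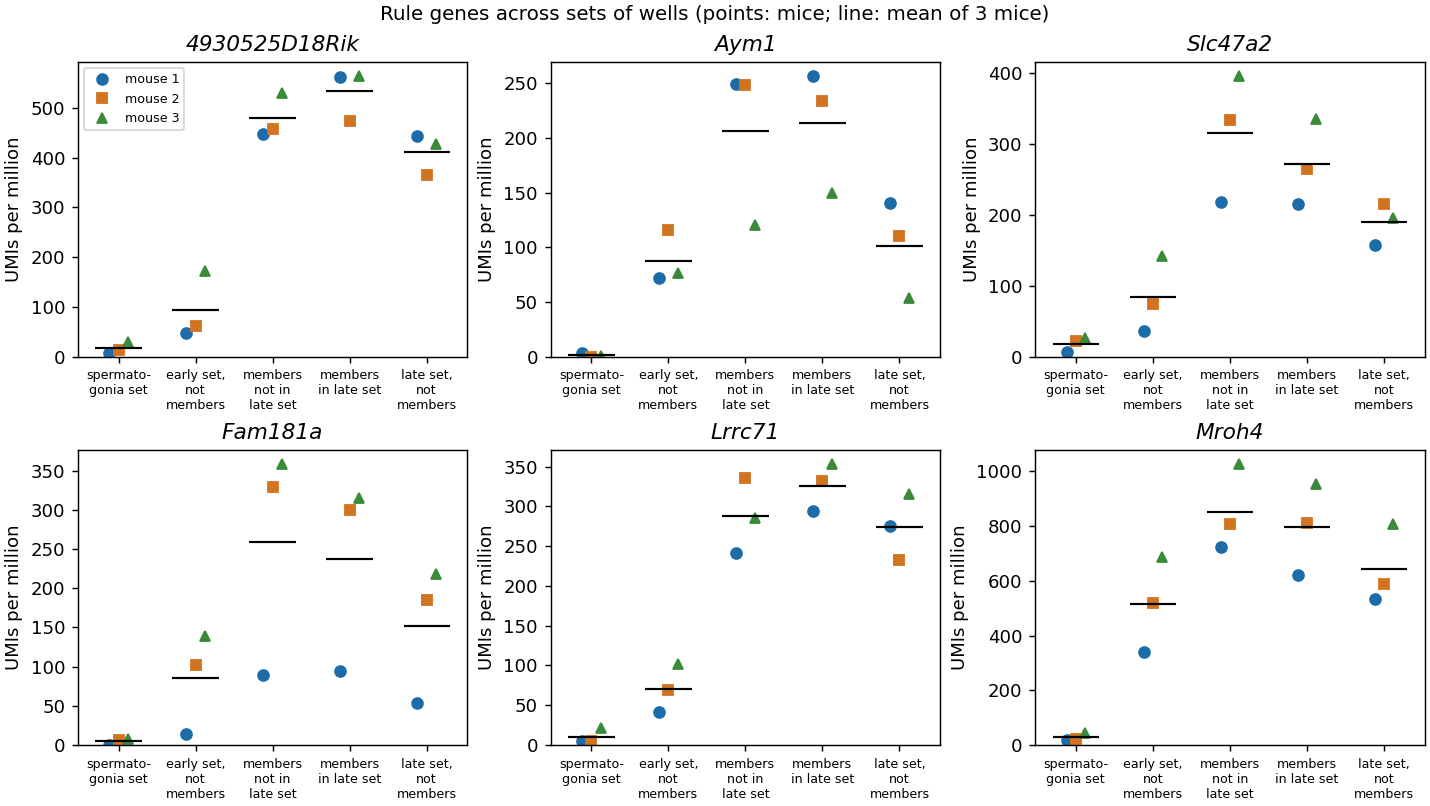
CPM of each of the 6 choosing genes in 5 sets of wells (spermatogonia, early not chosen, chosen outside the late set, chosen and late, late not chosen), with points for the 3 mice and a line at their mean. All 6 are near 0 in the spermatogonia set, and Aym1, Slc47a2 and Fam181a are lower again in the late wells not chosen, with Aym1 at 101 against 206 and 213 in the chosen wells. The late wells not chosen lack the highest scores by definition.

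Against the 58 late wells not chosen, the 58 chosen wells outside the late set had 45 of 12306 genes (0.366%) at least 2-fold higher in each mouse and 381 (3.1%) lower. Stambp, a deubiquitinating enzyme of endosomes, was at 952, 1081 and 841 CPM in the chosen wells of mice 1, 2 and 3 and 383, 239 and 243 in the late wells (log2 ratio 1.76 ± 0.43). Tmem159, Maz, Hemt1 and Top2b, the last a topoisomerase, had mean log2 ratios of 1.49 (Top2b) to 1.73 (Tmem159). Lower were 1700008F21Rik, at 4.42 ± 3.21 against 94.1 ± 35.9, 1700020D05Rik, at 10.3 ± 4.3 against 141 ± 31, and Tekt3, a tektin of the sperm tail, at 6.17 ± 2.93 against 64.9 ± 6.8. Ovol2, a zinc finger transcription factor, was at 3.48 ± 2.29 against 50.1 ± 17.6, and Arhgap20, at 4.24 ± 1.11 against 58.7 ± 11.9. For all 5 lower genes the levels of the 2 sets did not overlap, which their choice by ratio favours.

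Against the 102 early wells not chosen, the other 102 chosen wells had 690 of 12308 genes (5.61%) at least 2-fold higher in each mouse and 523 (4.25%) lower. Slco6c1, an organic anion transporter, was at 141, 110 and 118 CPM in the chosen wells of mice 1, 2 and 3 and at 2.39, 7.88 and 14.8 in the early wells (log2 ratio 3.98 ± 1.28). Qrich2, a protein of the sperm flagellum, was at 31.5, 193 and 263 against 0.796, 7.88 and 37.8, with mouse 1 low in both sets. 1700039E15Rik, Them6 and Speer1-ps1 had mean log2 ratios of 4.04, 3.89 and 3.71. Gnas was lower, at 51.5 ± 5.5 against 800 ± 29, as was Elavl3, an RNA-binding protein, at 4.01 ± 2.54 against 147 ± 25. The X-linked Fmr1nb, Prdx4 and Gm364 had mean log2 ratios of -5.00, -4.40 and -4.14. Depth differed between these sets, at a median of 28867 UMIs in the early wells. With every well thinned to 10000 UMIs, 595 genes were higher and 465 lower, of a number of tested genes not given here.

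The gene lists below give the chosen wells against all other kept wells, for which 0.138% of genes were higher and 19.3% lower, with a median log2 ratio of -0.21. A ratio above 1 in 3 of 3 mice, at any size, was found for 29.7% of all genes. Every list median below is a median log2 ratio. The choosing genes are left out of the counts of each list. Of 25 measured genes of the axoneme and intraflagellar transport, 23 had a ratio above 1 in 3 of 3 mice and 1 passed 2-fold higher (Armc4), with a median log2 ratio of 0.80. Of 15 sperm surface genes of the ADAM and TEX101-related families, 10 had a ratio above 1 in 3 of 3 mice (median 0.77) and 1 passed 2-fold lower, Calr3, a chaperone of the testis that stood at under 3 CPM in both classes of every mouse. Of 14 acrosome genes, 8 had a ratio above 1 in 3 of 3 mice (median 0.66), and Spaca1, a protein of the acrosomal membrane, passed 2-fold lower at 3.43 ± 1.42 against 10.5 ± 3.3.

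In the piRNA pathway 15 of 20 genes had a ratio above 1 in 3 of 3 mice, none past 2-fold, with a median of 0.32. Tdrd6, a tudor protein of the chromatoid body, was at 290, 328 and 318 CPM in the chosen wells of mice 1, 2 and 3 against 111, 144 and 199. It was at 58.1 in the early wells not chosen and 476 in the late wells not chosen. Of the relatives of the choosing genes Mroh4 and Fam181a, 4 were measured, all of the MROH family. All 4 had a ratio above 1 in every mouse (median 1.00) and none passed 2-fold in every mouse. Mroh2b was at 334, 396 and 439 against 130, 158 and 236. Of 7 solute carriers related to Slc47a2 or to glucose uptake, 4 had a ratio above 1 in 3 of 3 mice (median 0.20) and Slc2a1, the glucose transporter GLUT1, passed 2-fold lower, at 1.65 ± 0.09 against 8.90 ± 1.99.

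Metabolic genes differed in direction. Of 23, 11 had a ratio above 1 in 3 of 3 mice and 4 passed 2-fold lower, with a median of 0.16. The X-linked Pdha1 and Pgk1 had mean log2 ratios of -2.95 and -2.61, whereas the autosomal testis forms Pdha2 and Pgk2 had 0.68 and -0.09. Somatic cytochrome c (Cycs) was at 88.0, 42.6 and 32.8 CPM against 224, 209 and 176. Its testis form Cyct had a mean log2 ratio of 0.55. Pgam2, a phosphoglycerate mutase, had the highest mean log2 ratio of the list, 1.23.

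Of 7 measured genes of double-strand break formation, 2 (28.6%) passed 2-fold lower (median -0.87), beside 19.3% of all genes: Mei1, at 3.96 against 36.3 CPM, and Prdm9, the methyltransferase that marks hotspots, at 8.80 against 36.4. Of 14 strand exchange genes 4 (28.6%) passed lower (median 0.02), and Dmc1 had -3.94 ± 0.48. Of 12 crossover maturation genes only the X-linked Tex11 passed lower, and 7 had a ratio above 1 in 3 of 3 mice (median 0.22). Mlh3, a component of the late crossover complex, had a mean log2 ratio of 0.65.

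In the synaptonemal complex and cohesin list, 3 of 12 genes passed lower (median -0.12). All 3 were cohesin subunits: Smc3 at 32.4 ± 4.6 against 217 ± 25 CPM, Rad21 at 33.2 ± 2.6 against 168 ± 28, and Rec8 at 0.346 ± 0.424 against 6.67 ± 3.42. Of 16 genes of sex chromosome silencing, 4 passed lower (median -0.11): the X-linked Scml2, the ubiquitin ligase Ubr2, Brca1 and Ehmt2. The kinase Atr and the adaptor Mdc1, which act on the XY body, had mean log2 ratios of 0.45 and 0.46. Of 12 histone variants Hist1h1a and H1f0 passed 2-fold lower (median -0.10). Median-ratio scaling raised the median of all genes by 0.12, to -0.09, and those of these 3 lists by 0.10 to 0.13, to 0.01; relative to all genes they moved little.

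Of 27 regulators of the meiotic divisions 10 passed lower (median -0.19), led by the mitotic cyclin Ccna2 (-3.59 ± 0.50), the X-linked Ccnb3 (-3.17 ± 0.11) and the kinase Aurkb (-3.08 ± 0.53). A further 10 had a ratio above 1 in 3 of 3 mice, with the inhibitory kinase Pkmyt1 highest at a mean log2 ratio of 0.95. Of 18 pachytene transcription factors 5 passed lower: Taf7l, the Y-linked Zfy1 and Zfy2, Rfx1 and Taf4b. Zfy1 and Zfy2 were each at 0.260 CPM in the chosen wells of mouse 1 and at 0 in mice 2 and 3. Mybl1, Rfx2, Tcfl5 and Hsf5 had mean log2 ratios of 0.57, 0.56, 0.54 and 0.68. The list median was 0.00 and became -0.11 with equal weight for each well.

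**Figure D5:**
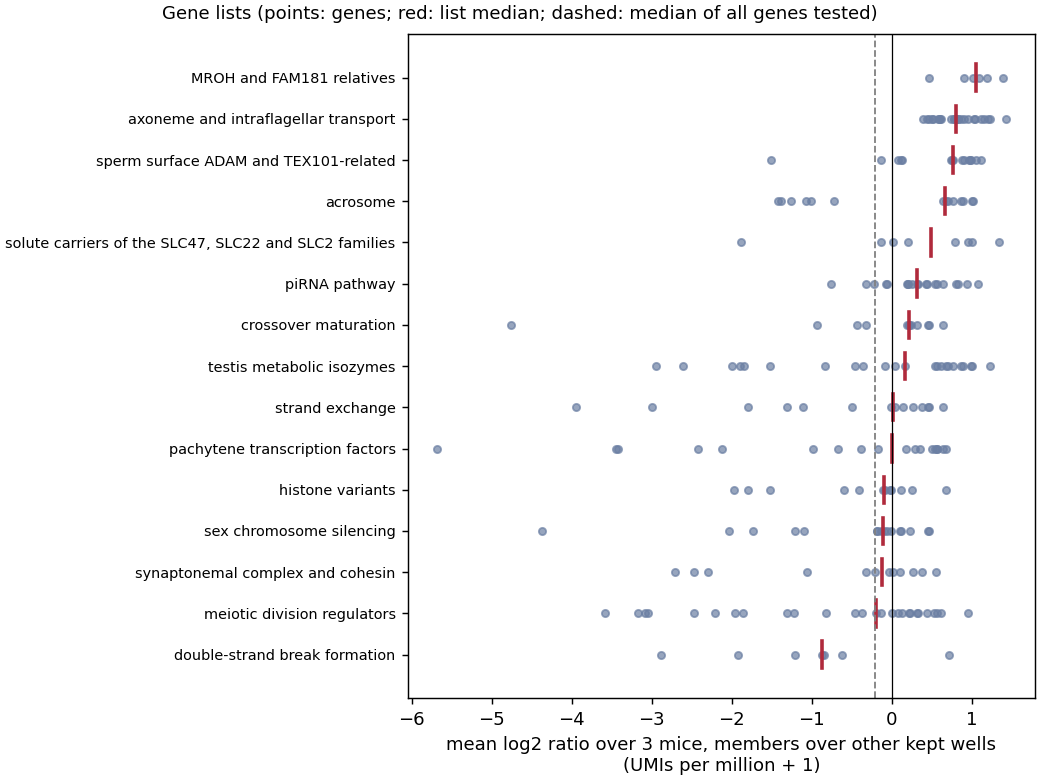
Mean log2 ratio over 3 mice between the chosen and the other kept wells (horizontal axis) for each measured gene of 15 lists, choosing genes included, with the list median in red and the median of all tested genes (-0.21) dashed. The axoneme list (median 0.80) lies wholly above 0, whereas recombination, cohesin and division lists have long tails of lower genes.

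Against the low-X wells alone the medians of 10 of the 15 lists were nearer to 0, and those of 5 farther from it. The axoneme list had a median of 0.22 and none of its 26 genes (Lrrc71 included) past 2-fold, the piRNA list 0.00, the acrosome list 0.06 and the division regulators -0.18, beside 0.01 for all 9954 genes. Farther from 0 were synaptonemal complex and cohesin (-0.28), histone variants (-0.26), sex chromosome silencing (-0.20), pachytene transcription factors (-0.12) and strand exchange (-0.11). Strand exchange, with its 4 lower genes, and acrosome, with Spaca1, were the lists that kept a gene past 2-fold.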

How the data were processed

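The authors deposited 3 tables for all wells: whole-number UMI counts, whole-number read counts, and transcripts, which are estimated counts corrected for UMI collisions. Per the submitters' processing notes, reads were mapped with BWA 0.7.10 to mm10; annotation and counting tool are not given in the sources used here. The columns of mouse 1 do not separate its libraries, and 0 columns belonged to no listed sample.

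UMI counts were analysed with Python 3.11.15, pandas 2.3.3, numpy 2.4.6 and scipy 1.17.1. ERCC, mitochondrial, eGFP and Rn45s rows were left out, and Rn45s gave at most 4.29% of UMIs in a class. UMIs were summed per mouse and class and scaled to 1000000 (CPM), with a pseudocount of 1. A gene was tested with at least 10 UMIs in the kept wells of each mouse, and called at 2-fold in each of 3 mice, with no p-value, since the wells were chosen by the same counts. Named genes were the 15 highest by the lowest ratio of the 3 mice (at least 20 CPM in chosen wells), the 10 lowest (at least 50 in the others), 5 in each direction against each neighbour set, and up to 3 list examples per direction. Further genes of a list are given by value only. The wells, genes and lists were chosen with earlier results of these data known. The calls were checked on simulated counts. No 2 kept wells held identical counts and no well name was shared. Depth bounds the precision: chosen wells summed to 3839637, 1220371 and 4573888 UMIs in mice 1, 2 and 3. Nothing in the labels gives the litter or housing of the mice, so spreads are those between these 3 mice. One gene of the strand exchange list is not reported here by name.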

Additional observations from a re-analysis of the deposited data

How the results depend on the processing

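The direction of each summary value (RNA per spike-in, mitochondrial, eGFP, X and Y shares) held under all 19 alternatives run for it. The eGFP value rests on 2 UMIs in the chosen wells of each mouse. One alternative, given below, chose the other wells by their X share, so its X value is not free of that choice. No p-value is given for these values, as an exact permutation p could not fall below 0.25. The number of genes 2-fold higher in the chosen wells, 17, varied most: 59 with wells of at least 5000 UMIs, 2 with at least 20000, 7 and 57 with the top 8% and 16%, 34 from reads, 588 from thinned wells, 197 without the gate-sorted plate, 825 with equal weight per well, 8 with a pseudocount of 5, 38 with TMM factors (edgeR 4.0.16) and 145 with median-ratio size factors. Leaving out a mouse gave 24 (mouse 2) to 304 (mouse 3). The lower genes, 2371, were 1409 with a pseudocount of 5. The number of genes tested can differ between settings, so only counts are compared.

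Against the late set, 45 higher genes became 26 without Aym1 in the score, 73 from reads, 10 with a pseudocount of 5 and 91 to 193 without a mouse (193 without mouse 3, 126 without mouse 1). The 381 lower became 166 from thinned wells, 121 without the gate-sorted plate, 173 with a pseudocount of 5 and 560 to 752 without a mouse (752 without mouse 1, 603 without mouse 3). Against the early set, 690 higher became 1044 with the top 8%, 437 with a pseudocount of 5 and 775 to 1260 without a mouse (1260 without mouse 3), and 523 lower became 313 with a pseudocount of 5. Fewer mice must pass a call when one is left out; the cause of the other shifts was not tested. The log2 X ratio was -3.98 from reads, and the log2 Y ratio -4.98 from reads and -3.37 with at least 20000 UMIs.

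With the others limited to wells with an X share under 1, an alternative chosen after seeing the data, 0 genes were higher and 49 lower. The log2 X and Y ratios were -0.31 and -0.43, and the late counts were 84 and 202. There the log2 ratios of 4 genes turned positive: Kit 0.11, Pdha1 0.25, Sohlh1 0.00516 and Zbtb16 0.0273. The limit of depth is that genes under 10 UMIs in a mouse were not compared. The mouse was the pair in every ratio. The labels name the mouse of each library. Between libraries of different mice, no paired analysis was possible because their replicate numbers do not mark shared animals.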

Other observations

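Shallower wells, with 1000 to 9999 UMIs, were not used in the choice. Of 196, 163 and 228 such wells in mice 1, 2 and 3, those that reached the lowest chosen score of their mouse numbered 0, 0 and 6.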
